A study of Mus musculus with 6 samples.

Results

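Genes that bring fatty acids into cells and bind them there were followed in primary cultures labelled as mouse aortic endothelial cells. Of these cultures, 3 were from transgenic mice and 3 from non-transgenic mice. The transgenic mice carried a dominant negative human PPAR gamma, labelled PPARG V290M, under the promoter of CDH5 (vascular endothelial cadherin), and both groups were of strain C57 and received no treatment. The 10 mice of a group gave 5 cultures with the cells of 2 mice each, and 3 of these cultures were hybridized to Affymetrix GeneChip mouse genome arrays, so that each replicate (n = 3 per group) is a culture of its own. The 8 genes, of 18193 that the array annotation names, were Cd36, Slc27a1, Fabp4, Fabp5, Fabp3, Lpl, Gpihbp1 and Angptl4. Every probe set whose array annotation named one of them was taken, which gave 18 probe sets among the 45037 that were not array controls. Of these, 15 probe sets of 7 genes had a mean level at or above the median of all probe sets and were tested. The 3 others were 1 probe set each of Cd36, Fabp3 and Gpihbp1, whose values are given without a call.

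In blood vessels, triglyceride carried by lipoproteins is cut by lipoprotein lipase, which is anchored to the vessel wall by GPIHBP1 and inhibited by ANGPTL4. The released fatty acids are taken up with the help of the membrane receptor CD36 and of fatty acid transport proteins such as that of Slc27a1, and small carriers of the FABP family hold them inside the cell. PPAR gamma, a nuclear receptor with fatty acids among its ligands, pairs with retinoid X receptors on DNA. Several of these genes, Fabp4, Cd36 and Lpl among them, are known as its targets in fat cells.

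One culture stood apart from its group. Transgenic replicate 3 had rank correlations across tested probe sets of 0.930 and 0.890 with the other transgenic arrays and of 0.954 to 0.969 with the non-transgenic arrays, so the calls are given with and without it. For the Gapdh controls the signal at the 3' end over that at the 5' end, a measure of how complete the transcripts were, was 1.33 ± 0.12 in the transgenic and 1.59 ± 0.11 in the non-transgenic group (SD, n = 3 each), with no overlap (p = 0.1 by exact two-sided permutation, which 3 against 3 arrays cannot go below). This ratio and the group can therefore not be told apart in full. Median signals were 173 to 186 on the transgenic and 219.9 to 223 on the non-transgenic arrays. The endothelial label was checked against 20 endothelial marker genes, of which 6, 7 and 6 lay above the level filter in the transgenic cultures and 7, 6 and 5 in the non-transgenic ones. Their mean log2 levels were 7.31, 7.41 and 7.38 in the transgenic and 7.61, 7.21 and 7.18 in the non-transgenic cultures. On that scale the filter lay at 7.72, and the means of 14 fibroblast markers at 12.18 to 13.04. Most of the endothelial markers were thus under the filter on every array, so the name endothelial rests on the label. Among the markers above it on every array, Eng read 2234.5 to 3830 and Egfl7 386.9 to 912. Cdh5, whose promoter drives the transgene, read 43.6, 31.1 and 95.9 in the transgenic cultures, against 130, 109 and 91.1 in the non-transgenic ones, all under the filter, which lay at a signal of 194, and Pecam1, an adhesion molecule of endothelium, read 9.3 to 65.1 over the 6 arrays.

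Signals are the deposited MAS5 values, on a linear scale, and each difference is the transgenic minus the non-transgenic mean of log2(signal + 16), a scale on which dim probe sets change less than they do in signal. Over the 15 tested probe sets, 12 lay lower and 3 higher in the transgenic cultures, with a median difference of -0.66, while over all 22519 probe sets tested the median was -0.06. One of the 15, Fabp4 1425809_at, reached the filter only through the non-transgenic cultures (mean log2 levels of 7.55 in the transgenic and 9.48 in the non-transgenic group, against a filter of 7.72). None of the 15 passed limma's test at a Benjamini-Hochberg adjusted p of 0.05, as 0% of all probe sets tested did (2298 were lower and 1304 higher at an unadjusted p under 0.05, 10.2% and 5.79%, against 5 and 0 of the 15). In 5 of the 15 the 3 transgenic cultures lay below all non-transgenic ones, against 11.8% of all probe sets, and none lay above them, against 8.3%. These 5 came from 3 genes, Fabp4, Lpl and Fabp5, and probe sets of one gene are not independent. Taking the brightest probe set of each gene alone, 1 of 7 genes, Lpl, had groups that did not overlap in this direction, against 6.72% of all genes (9.39% had the transgenic cultures all higher, and 0 of the 7).

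**Figure D1:**
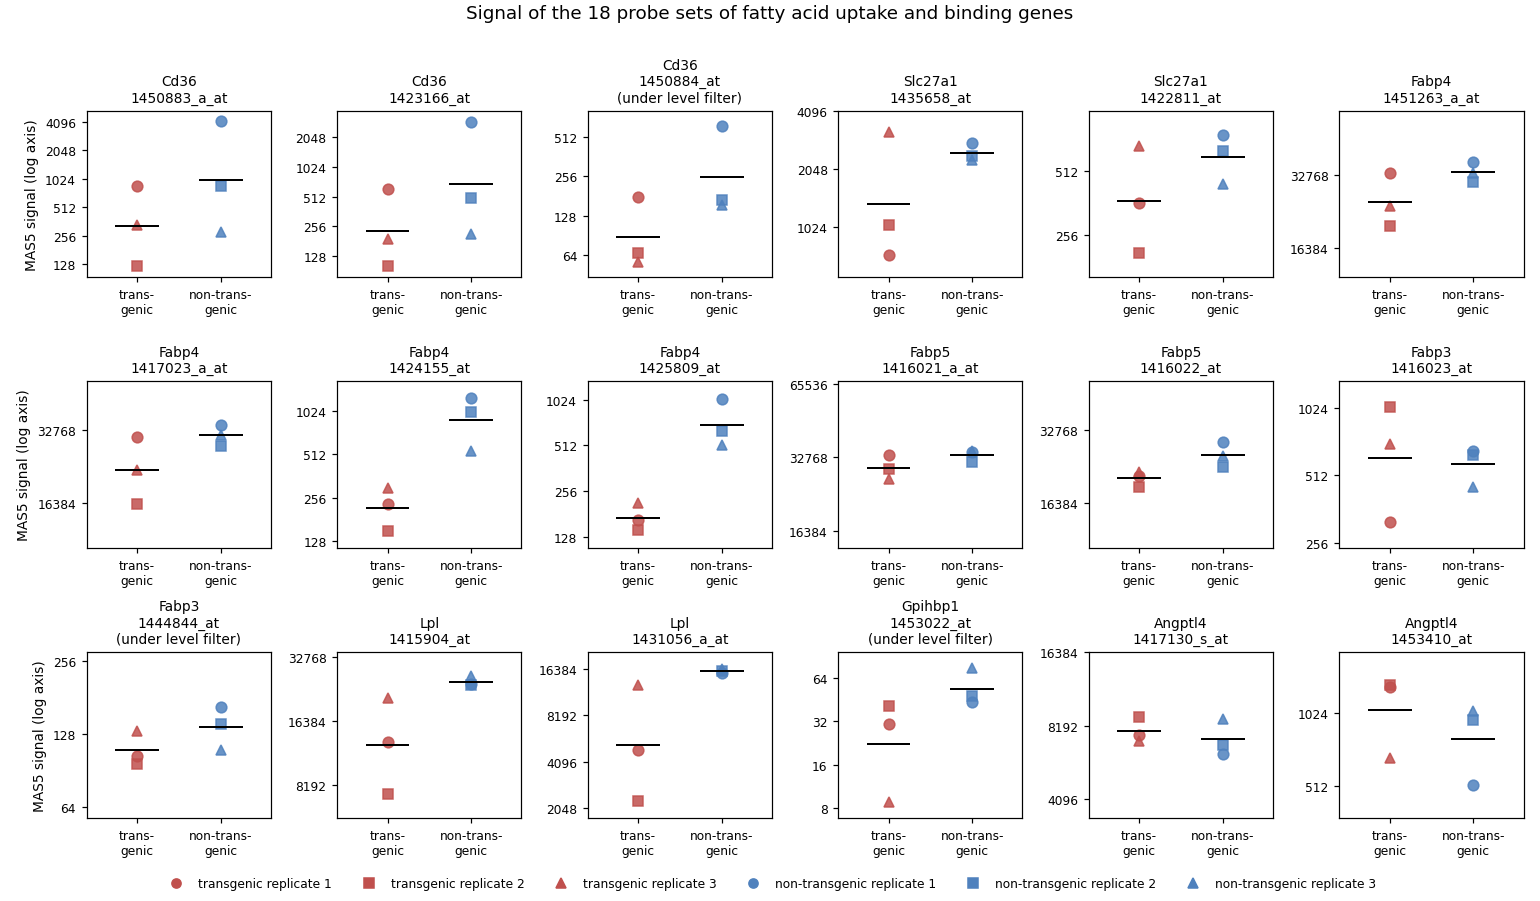
MAS5 signal (vertical log axes, a separate range in each panel) of the 18 probe sets in transgenic and non-transgenic cultures. Points are single arrays, the marker shape gives the replicate and bars are geometric means of 3 arrays. Both Lpl probe sets, the Fabp4 probe sets 1424155_at and 1425809_at, and Fabp5 1416022_at show 3 transgenic points under every non-transgenic point. Gpihbp1 1453022_at, under the level filter, does so too.

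Cd36, a scavenger receptor that binds long-chain fatty acids at the cell surface, varied more between cultures than between groups. Its probe set 1450883_a_at read 856, 122 and 337 in the transgenic cultures, against 4142, 855 and 281 in the non-transgenic ones. One non-transgenic culture, replicate 1, lay far above the rest, transgenic replicate 2 was the lowest, and the groups overlapped. The difference was -1.55 ± 0.97 (SE, 95% interval -3.77 to 0.66, limma adjusted p = 0.443). Probe set 1423166_at gave the same order of cultures within each group, at 612, 100.9 and 189 in the transgenic and 2938, 498 and 214 in the non-transgenic cultures, and a difference of -1.51 ± 0.94 (SE, limma adjusted p = 0.442). Without non-transgenic replicate 1 these differences were -0.54 and -0.48, without transgenic replicate 2 -0.89 and -0.97, and without non-transgenic replicate 3 -2.45 and -2.32. The Gapdh ratio as a covariate turned their sign, to 1.23 and 0.93. The probe set under the filter, 1450884_at, read 178, 66.8 and 56.4 in the transgenic cultures and 624, 169 and 155 in the non-transgenic ones. It too was highest in non-transgenic replicate 1.

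The stretch around the start of the Cd36 gene is shown because it holds one copy of the repeat in the element that PPAR and retinoid X receptors bind, AGGTCA with a second copy after 1 base. The window comes from RefSeq, build GRCm38.p6, at chr5:17835847-17836146 on the minus strand, reaches from 250 bases before the start of the gene to 50 after it, and is written 5′ to 3′ with the match in capitals.
Cd36: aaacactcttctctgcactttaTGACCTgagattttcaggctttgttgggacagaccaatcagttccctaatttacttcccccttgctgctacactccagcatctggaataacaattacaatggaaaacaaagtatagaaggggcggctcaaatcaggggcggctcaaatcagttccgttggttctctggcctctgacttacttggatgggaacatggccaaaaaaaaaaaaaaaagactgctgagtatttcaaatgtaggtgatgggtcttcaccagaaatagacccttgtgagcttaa
The capitals are TGACCT, the reverse complement of AGGTCA, and begin 228 bases before the start. Searched on both strands, AGGTCA was found in 16.3% of the 32851 windows of this length in the table, and the full repeat AGGTCANAGGTCA in 0.0396%. Windows were listed for 3 of the 8 genes, 5 windows in all, and the 1 of Fabp3 and the 3 of Slc27a1 held no AGGTCA. A match describes the letters only.

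Slc27a1 encodes FATP1, a fatty acid transport protein that also activates fatty acids with coenzyme A. On its probe set 1435658_at it read 724, 1049 and 3177 in the transgenic cultures, against 2815, 2385 and 2279 in the non-transgenic ones. The first and second transgenic cultures lay at less than every non-transgenic culture, and the third lay above all of them. The difference over all arrays was -0.88 ± 0.49 (SE, 95% interval -1.99 to 0.24, limma adjusted p = 0.396). Probe set 1422811_at read 363, 212 and 669 in the transgenic and 757, 636 and 444 in the non-transgenic cultures, a difference of -0.66 ± 0.42 (SE, limma adjusted p = 0.455). Here too the third transgenic culture was the highest of its group, but it lay within the non-transgenic range. Without transgenic replicate 3 the differences were -1.49 ± 0.24 (SE, limma adjusted p = 0.00686) and -1.06 ± 0.34 (limma adjusted p = 0.0587). That replicate itself lay 0.35 and 0.16 above the non-transgenic mean. Other choices made the differences smaller, with -0.44 for 1435658_at without transgenic replicate 1 and -0.27 for 1422811_at without transgenic replicate 2, and the Gapdh ratio as a covariate turned both signs, to 0.12 and 0.65.

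Fabp4, the fatty acid carrier of adipocytes, macrophages and capillary endothelium, was read by 4 probe sets, and they fell into pairs. On 1451263_a_at it read 33366, 20294 and 24409 in the transgenic cultures, against 37168, 30709.7 and 33492 in the non-transgenic ones. Transgenic replicate 1 lay among the non-transgenic cultures and the other 2 lay below them. The group means were 26023 ± 6684 and 33790.0 ± 3240 (SD, n = 3 each), and the difference was -0.40 ± 0.18 (SE, limma adjusted p = 0.313). Probe set 1417023_a_at gave 30802, 16204 and 22557 in the transgenic and 34511, 28283 and 31302 in the non-transgenic cultures, and a difference of -0.48 ± 0.21 (SE, limma adjusted p = 0.317). Without transgenic replicate 2 the differences of this pair were -0.24 and -0.25. On this pair the highest signals were 37168 and 34511, where the highest of any probe set on these arrays was 57704. Whether differences are compressed at such signals was not tested.

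The other pair of Fabp4 probe sets gave a larger difference and no overlap. On 1424155_at the transgenic cultures read 229.5, 149 and 297, against 1261, 997 and 540.0 in the non-transgenic ones. All 3 transgenic cultures, the third included, lay below the lowest non-transgenic culture. The difference was -1.94 ± 0.39 (SE, 95% interval -2.83 to -1.05, limma adjusted p = 0.205), which is 3.84-fold lower in the transgenic cultures. On 1425809_at the transgenic cultures read 166, 142 and 214, against 1036, 635 and 513 in the non-transgenic ones, with a difference of -1.92 ± 0.33 (SE, 95% interval -2.68 to -1.17, limma adjusted p = 0.205). Since 1425809_at was tested only because of its level in the non-transgenic cultures, its test does not stand as a second line of support beside that of 1424155_at. These 2 had the smallest unadjusted p of the 15 probe sets, 0.000948 and 0.000337, and 0.205 was the smallest adjusted p among all probe sets tested. Without transgenic replicate 3 they differed by -2.15 ± 0.38 (SE, limma adjusted p = 0.00949) and -2.07 ± 0.34 (SE, limma adjusted p = 0.0071), and both passed. The filter was still set on all 6 arrays. The transgenic log2 levels left were 7.94 and 7.37 for 1424155_at and 7.51 and 7.31 for 1425809_at. On average both lay under the filter of 7.72, so in that fit both were tested through their non-transgenic levels. These passes are therefore not further support. In transgenic replicate 3 the 2 probe sets lay at -1.52 and -1.63 relative to the non-transgenic mean. With the Gapdh ratio as a covariate they differed by -0.86 and -1.13 (limma adjusted p = 0.551 and 0.468), and the other pair by -0.07 for 1451263_a_at and by close to 0 for 1417023_a_at.

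The disagreement between the pairs was measured within each array, where the scaling of the array drops out. The log2 ratio of 1424155_at to 1451263_a_at was -7.09, -6.94 and -6.28 in the transgenic cultures, against -4.86, -4.92 and -5.91 in the non-transgenic ones. The means were -6.77 ± 0.43 and -5.23 ± 0.59 (SD, n = 3 each), a difference of -1.54 without overlap (p = 0.1 by exact permutation, again the lowest possible). For 1425809_at against 1451263_a_at the difference was -1.52 (exact permutation p = 0.1). Within a pair the ratio moved far less, by -0.02 for 1424155_at against 1425809_at and by 0.08 for 1451263_a_at against 1417023_a_at (exact permutation p = 0.9 and 0.3). The pairs were told apart after the values of these arrays were seen, so these p-values describe the split and do not test it. Probe sets 1424155_at and 1451263_a_at are annotated with the same transcript record, and the annotation lists none for 1425809_at, so which forms of the transcript each pair reads is not known here. Of 5124 genes with several tested probe sets, 50 (0.976%) had differences that spanned at least as far as the 1.54 of Fabp4, which is read by more probe sets than most.

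**Figure D2:**
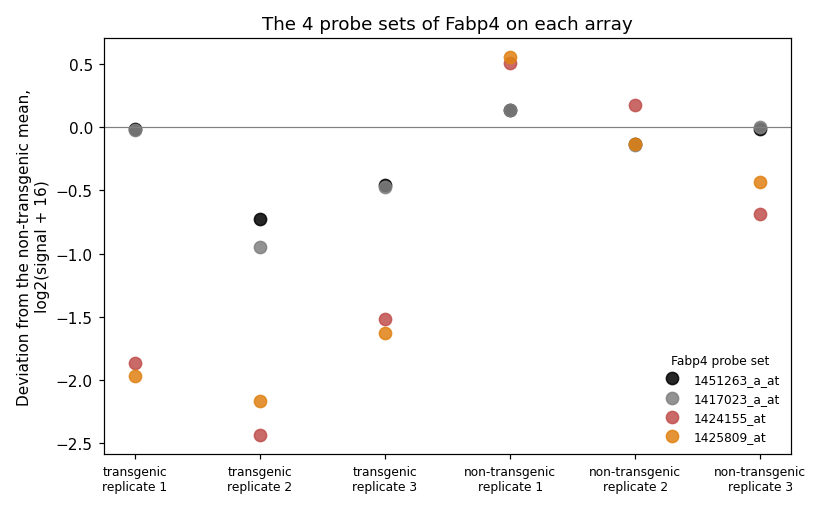
Deviation of each array from the non-transgenic mean (vertical axis, log2(signal + 16)) for the 4 probe sets of Fabp4, with the 6 arrays along the horizontal axis. In transgenic replicate 1 the first pair lies near 0 and the second near -1.9, and in transgenic replicate 3 they lie near -0.5 and -1.6.

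Fabp5, the epidermal type carrier, which is also found in endothelium, lay slightly lower on both of its probe sets. On 1416022_at it read 21284, 19152 and 22029 in the transgenic cultures, against 29122, 23105 and 25596 in the non-transgenic ones. The groups did not overlap, and the gap between them was smaller than the spread among non-transgenic cultures. The difference was -0.31 ± 0.12 (SE, 95% interval -0.58 to -0.04, limma adjusted p = 0.273). On 1416021_a_at it read 33512, 29211 and 26815 in the transgenic and 34500.4, 31462 and 34922 in the non-transgenic cultures, with a difference of -0.18 ± 0.11 (SE, limma adjusted p = 0.433), and transgenic replicate 1 lay among the non-transgenic cultures. Centring each array on its median added 0.27 to every tested difference and left -0.04 and 0.09 for Fabp5.

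In RefSeq's order of mouse genes, 4 genes lie between Fabp5 and Fabp4, of which 2 are coding, Pmp2 and Fabp9, also carriers of this family, and Fabp12 follows Fabp4. These 3 relatives lay under the level filter, with mean log2 levels of 6.15, 4.78 and 6.90, against a filter of 7.72. Fabp3, the carrier of heart and skeletal muscle, maps to another chromosome and showed no clear difference. On 1416023_at it read 318, 1029 and 709 in the transgenic cultures, against 657, 631 and 454 in the non-transgenic ones, so the transgenic group held both the lowest and the highest value. The difference was 0.10 ± 0.42 (SE, 95% interval -0.86 to 1.07, limma adjusted p = 0.919), and the sign turned without transgenic replicate 2 (-0.26) or non-transgenic replicate 3 (-0.06). Its second probe set, 1444844_at, lay under the filter at 96.4 to 132 in the transgenic and 109.8 to 166 in the non-transgenic cultures.

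Lpl, the lipase that frees fatty acids from lipoprotein triglyceride, lay below every non-transgenic culture in all 3 transgenic cultures on both of its probe sets. On 1415904_at it read 13165, 7453 and 21059.9 in the transgenic cultures, against 24481, 24123 and 26652 in the non-transgenic ones. The non-transgenic cultures lay close together, transgenic replicate 2 was the lowest and transgenic replicate 3 came nearest to them. The means were 13892 ± 6833 and 25085 ± 1368 (SD, n = 3 each), and the difference was -0.98 ± 0.32 (SE, 95% interval -1.71 to -0.24, limma adjusted p = 0.240). On 1431056_a_at it read 4844, 2275 and 12882 in the transgenic cultures, against 15378, 15832 and 16249 in the non-transgenic ones. The transgenic cultures stood in the same order and the difference was larger, at -1.60 ± 0.52 (SE, 95% interval -2.79 to -0.40, limma adjusted p = 0.239), or 3.02-fold lower.

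Without transgenic replicate 3 the Lpl differences were -1.34 ± 0.21 and -2.25 ± 0.27 (SE), and both passed (limma adjusted p = 0.00634 and 0.00305). That replicate lay at -0.25 and -0.30 relative to the non-transgenic mean. With that control ratio of Gapdh in the fit as a covariate they were -0.06 and -0.07, and neither passed. The log2 ratio of 1431056_a_at to 1415904_at was -1.44, -1.71 and -0.71 in the transgenic cultures and -0.67, -0.61 and -0.71 in the non-transgenic ones. It was thus lower in the first and second transgenic cultures and in transgenic replicate 3 like that of the non-transgenic cultures (exact permutation p = 0.2).

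Gpihbp1, which carries the lipase across capillary endothelium, was under the level filter on every array. Its probe set 1453022_at read 30.8, 40.7 and 8.8 in the transgenic cultures, against 43.4, 48.1 and 74.6 in the non-transgenic ones, and with every probe set tested the difference was -0.80 ± 0.40 (SE, limma adjusted p = 0.413). At such signals the value says little about the amount of the transcript. Angptl4, an inhibitor of the lipase that is itself a known PPAR target, did not follow Lpl. On 1417130_s_at it read 7518, 8903 and 7056 in the transgenic cultures, against 6284, 6801 and 8692 in the non-transgenic ones, and the groups overlapped. The difference was 0.12 ± 0.18 (SE, 95% interval -0.29 to 0.52, limma adjusted p = 0.763). On 1453410_at it read 1314, 1330.4 and 669 in the transgenic and 519, 960.0 and 1047 in the non-transgenic cultures, with a difference of 0.38 ± 0.38 (SE, limma adjusted p = 0.629).

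**Figure D3:**
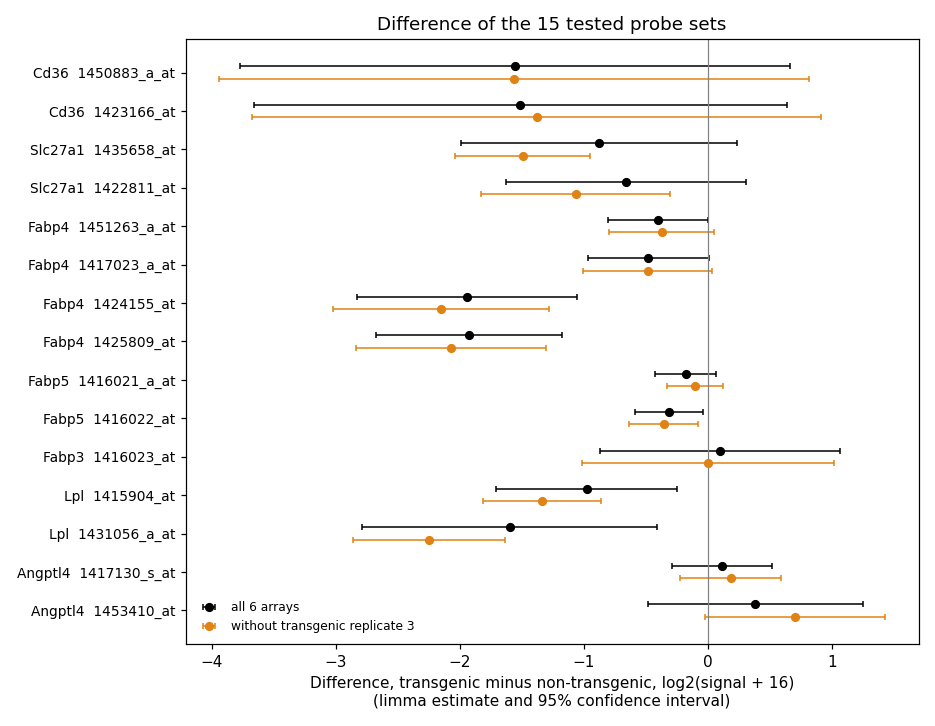
Difference of the 15 tested probe sets (horizontal axis, transgenic minus non-transgenic, log2(signal + 16)) with limma's 95% confidence interval, over all 6 arrays (black) and without transgenic replicate 3 (orange). The orange intervals of Lpl and of Slc27a1 1435658_at are narrower and farther from 0, and those of Cd36 span 0 in both fits.

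Without transgenic replicate 3, limma called 5 of the 15 probe sets, all lower: the Lpl pair, Fabp4 1424155_at and 1425809_at, and Slc27a1 1435658_at. In that fit 10.7% of all probe sets were called lower and 7.2% higher. The array was left out after its values were known, and the fit compares 2 cultures with 3. The probe sets tested in it were still those chosen by the mean over all 6 arrays. Of the 5, Fabp4 1424155_at and 1425809_at were tested only through their non-transgenic levels, so their calls are not support. Tested probe sets that did not pass then differed by -1.56 and -1.38 for Cd36, -1.06 for Slc27a1 1422811_at, and -0.37 and -0.48 for Fabp4 1451263_a_at and 1417023_a_at. For Fabp5 1416021_a_at and 1416022_at the differences were -0.10 and -0.35, for Angptl4 0.19 and 0.70 and for Fabp3 0.0036. With estimated array weights 7 of the 15 were called, again all lower, but so were 29.4% of all probe sets, with 19.8% called higher, or 49.2% in all, and that fit rested mostly on transgenic replicate 1 and non-transgenic replicate 2. The 5 probe sets differed in where the left-out culture lay: it was with the other transgenic cultures for Fabp4 1424155_at and 1425809_at, near the non-transgenic cultures for Lpl and above them for Slc27a1.

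Markers of other cell types that use these genes were read on the same arrays. Of 10 adipocyte markers, 4, 2 and 8 lay above the filter in the transgenic cultures and 8, 8 and 7 in the non-transgenic ones. Their mean log2 level was 7.90, 6.59 and 9.0 in the transgenic cultures, against 10.85, 9.03 and 8.83 in the non-transgenic ones. It was highest in non-transgenic replicate 1 and lowest in transgenic replicate 2, as was Cd36 1450883_a_at. Of the 8 adipocyte markers tested, 7 lay lower and 1 higher in the transgenic cultures, and none passed. Their median difference was -2.23, against -0.02 over all genes tested, but some of them reached the filter only through the non-transgenic cultures. Adipoq, the hormone adiponectin made by fat cells, read 2698, 300.0 and 5039 in the transgenic cultures, against 20638, 7479 and 4453 in the non-transgenic ones. Fewer cells of a type and less RNA per cell cannot be told apart in such samples. The part of fat cells in the member differences was not tested. Without non-transgenic replicate 1, where the adipocyte markers were highest, the Fabp4 probe sets 1424155_at and 1425809_at differed by -1.69 and -1.64, those of Lpl by -0.99 and -1.62 and those of Cd36 by -0.54 and -0.48, and none of these passed. Leaving that culture out did not even out the adipocyte markers, which in transgenic replicates 1 and 2 were also lower than in the other non-transgenic cultures.

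Of 20 macrophage and leukocyte markers, 5, 12 and 4 lay above the filter in the transgenic cultures and 5, 4 and 5 in the non-transgenic ones, with mean log2 levels of 7.09, 8.5 and 6.67 in the transgenic and 6.90, 6.76 and 7.05 in the non-transgenic cultures. Transgenic replicate 2 thus stood out. It also had the lowest signals of Lpl, of all 4 Fabp4 probe sets, and the part of these cells was not tested. Without it the differences were -0.59 and -1.0 for Lpl and -1.69 and -1.80 for Fabp4 1424155_at and 1425809_at. Of 14 fibroblast markers, 14, 13 and 14 lay above the filter in the transgenic cultures and 14 in each non-transgenic one, with mean log2 levels of 12.56, 12.18 and 13.04 in the transgenic and 12.88, 12.89 and 12.94 in the non-transgenic cultures. Of these 14, 9 lay lower and 5 higher in the transgenic cultures, with a median difference of -0.18. Dcn, the matrix proteoglycan decorin, read 9113, 3514 and 18503 in the transgenic cultures, against 18219, 24288 and 26696 in the non-transgenic ones. As on Lpl, transgenic replicate 2 was the lowest on Dcn, followed by replicate 1, and replicate 3 was the highest of its group. Unlike on Lpl, replicate 3 lay above non-transgenic replicate 1 on Dcn, so the groups overlapped. The fibroblast markers did not all share the order of the transgenic cultures on Dcn. Thy1, another of the 14, went the other way, at 13948, 12025 and 8454 in the transgenic and 8402, 4797 and 5428.5 in the non-transgenic cultures. The part of fibroblasts in the Lpl difference was not tested. Of 10 smooth muscle markers, 7, 8 and 9 lay above the filter in the transgenic and 8, 7 and 8 in the non-transgenic cultures.

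**Figure D4:**
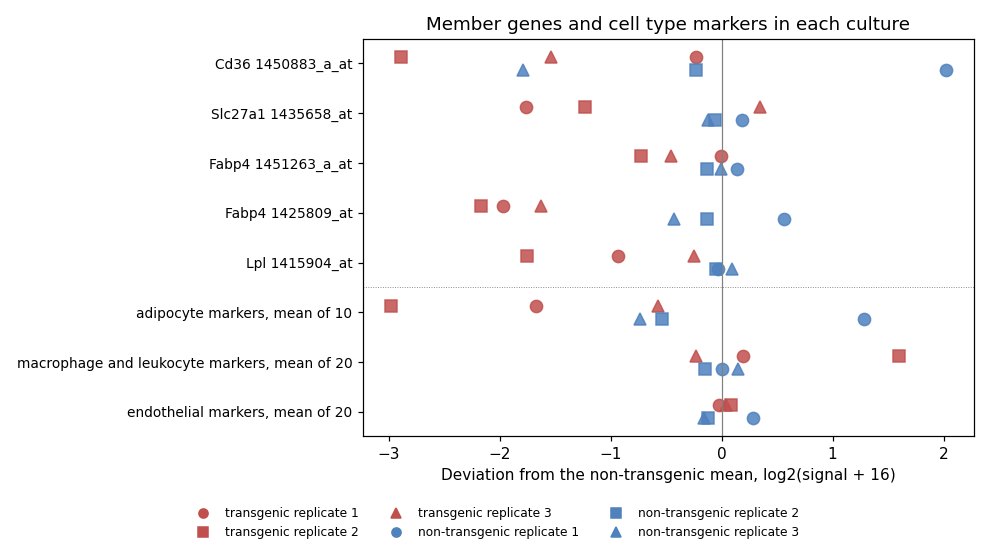
Deviation of each culture from the non-transgenic mean (horizontal axis, log2(signal + 16)) for 5 member probe sets and, below the dotted line, for the mean of the adipocyte, macrophage and leukocyte, and endothelial markers. Colours give the group and shapes the replicate. Non-transgenic replicate 1 is the highest on Cd36 and on the adipocyte markers, at 2.02 and 1.28, and transgenic replicate 2 on the macrophage and leukocyte markers, at 1.6.

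Other genes of fatty acid handling were read by the brightest probe set of each gene. Of 17 further genes of fatty acid binding, import and activation on the array, 7 were tested, 2 of them lower and 5 higher, with a median difference of 0.04, against -0.02 over all 11208 genes tested. None passed. Got2, a mitochondrial aminotransferase also described as a fatty acid binding protein of the plasma membrane, read 15041, 15316 and 14727 in the transgenic cultures, against 12749.5, 10991 and 11287 in the non-transgenic ones. The groups did not overlap, and the difference was 0.37 ± 0.12 (SE, limma adjusted p = 0.237). Acsl4, which activates arachidonic acid, differed by 0.44 ± 0.39 (SE, limma adjusted p = 0.585), but by 0.06 without transgenic replicate 2 and 0.87 without transgenic replicate 3. Slc27a3, another transport protein, differed by 0.28 ± 0.33 (limma adjusted p = 0.691), ranging over 0.10 to 0.60 with 1 array left out. Without transgenic replicate 3 none of the 7 passed.

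Genes that control the lipase or take up lipoproteins gave 11 tested of 15 on the array, 8 lower and 3 higher, with a median of -0.05 and none passing. Hspg2, the heparan sulfate core protein perlecan, differed by 0.65 ± 0.36 (SE, limma adjusted p = 0.394). This was 0.29 without non-transgenic replicate 3 and 1.03 without non-transgenic replicate 1. Pcsk6, a proprotein convertase, read 455, 363 and 2293 in the transgenic cultures, against 1545, 1951 and 1318 in the non-transgenic ones. As on Slc27a1, transgenic replicate 3 lay above all non-transgenic cultures and the other 2 below them, and the difference was -1.10 ± 0.62 (SE, limma adjusted p = 0.403). Vldlr, a lipoprotein receptor that works with the lipase, differed by -0.46 ± 0.26 (SE, limma adjusted p = 0.403), or -0.16 without transgenic replicate 2. Without transgenic replicate 3 limma called 3 of the 11, all lower, namely Pcsk6 at -1.92 (limma adjusted p = 0.00414), Vldlr at -0.72 (limma adjusted p = 0.042) and the convertase Pcsk5 at -1.55 (limma adjusted p = 0.00396). The shares called over all probe sets in that fit were 10.7% lower and 7.2% higher. The 11 were instead the brightest probe set of each gene, for which no such share was taken. Pcsk6 was at -0.62 without transgenic replicate 2.

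Among 14 genes known to control fatty acid transport through endothelium, 11 were tested, 8 lower and 3 higher, with a median of -0.22 and none passing. Nrp1, a co-receptor of VEGFB, a growth factor known to raise endothelial fatty acid uptake, read 11952, 10462 and 21509 in the transgenic cultures, against 26946, 27835 and 30261 in the non-transgenic ones. The groups did not overlap and transgenic replicate 3 lay between the others and the non-transgenic cultures, much as on Lpl. The difference was -1.02 ± 0.24 (SE, 95% interval -1.58 to -0.47, limma adjusted p = 0.210). Flt1, the other VEGFB receptor, read 2932, 6053 and 1528 in the transgenic cultures and 1372, 1353 and 1767 in the non-transgenic ones, a difference of 1.01 ± 0.45 (SE, limma adjusted p = 0.317). Apln, the ligand apelin, read 2334, 2292 and 330.1 in the transgenic and 505, 298 and 279 in the non-transgenic cultures, a difference of 1.76 ± 0.70 (SE, limma adjusted p = 0.287). Pparg itself read 3025, 719.6 and 2500.0 in the transgenic cultures, against 5077, 2628 and 1499 in the non-transgenic ones, and its difference of -0.62 ± 0.60 (SE, limma adjusted p = 0.620) was no larger than the spread. It was 0.02 without transgenic replicate 2. Whether this probe set reads the human transgene is not known. Without transgenic replicate 3 limma called 5 of these 11 genes, in a fit that called 10.7% of all probe sets lower and 7.2% higher. Those shares are over all probe sets, not over the brightest of each gene. Nrp1 at -1.34 (limma adjusted p = 0.00107), Foxo1, a forkhead transcription factor, at -1.67 (limma adjusted p = 0.00279) and Rxra, the retinoid X receptor alpha, at -1.18 (limma adjusted p = 0.00413) were lower, and Apln at 2.68 (limma adjusted p = 0.00264) and Flt1 at 1.49 (limma adjusted p = 0.0153) were higher. Flt1 was at 0.51 without transgenic replicate 2.

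The genes whose levels went most alike with each member over the 6 arrays, out of 11207 others, are given as a description. For Lpl 1415904_at they were Gm11266 and Egfr (Pearson r = 0.996 and 0.995), and for Slc27a1 1435658_at Akap13 and 4930481A15Rik (0.999 and 0.997). For Cd36 1450883_a_at they were Gdpgp1 and Ypel2 (0.988 and 0.978), for Fabp4 1451263_a_at Scp2 and Arnt (0.991 and 0.989), and for Fabp5 1416021_a_at Aplf and Tmpo (0.993 and 0.982). For Fabp3 1416023_at they were Zfp697 and Camk2a (0.995 and 0.993) and for Angptl4 1417130_s_at 4930448K20Rik and Stmn2 (0.979 and 0.967). With 6 arrays and so many candidates, high values of this kind are common, and no 2 members shared a gene.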

How the data were processed

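The authors deposited linear intensities, 1 for each probe set on each array. The submitters' processing notes name MAS5, with its version not given in the sources used here. About 50 ng of RNA was amplified before hybridization, per the labels' design text. After trimming 2% of probe sets at either end, array means were 1494 to 1496, so the arrays were not rescaled. No detection call was applied. Names came from the array annotation (34945 probe sets with 1 gene, 932 with several, 9160 with none) and, for genes other than members, were updated through RefSeq's mouse table. Groups and replicate numbers came from the sample titles.

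Values were log2(intensity + 16). Probe sets whose mean over the 6 arrays reached the median (7.72, a signal of 194) were tested 1 by 1 in R 4.3.3 with limma 3.58.1 (lmFit, eBayes with trend), two-sided, with Benjamini-Hochberg adjustment over all 22519. Standard errors and intervals are limma's. Single ratios were compared by exact permutation. The number of arrays limits the precision.

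The members, the pathway and marker lists and the alternatives were chosen with earlier results of these data known. Named are all member probe sets, the 3 pathway genes per list with the smallest p, Pparg and Flt1, and the 2 genes most like each member. Adipoq, Cdh5, Pecam1, Eng, Egfl7, Dcn, Thy1, Pcsk5, Foxo1 and Rxra, and the neighbours of Fabp4, were chosen after their values were seen.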

Additional observations from a re-analysis of the deposited data

How the results depend on the processing

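limma called 0 of 22519 probe sets and 0 of the 15 member probe sets, with 3602 probe sets at an unadjusted p under 0.05. It also called 0 under other pseudocounts, filters and scalings, without the variance trend, with 1 probe set per gene and with either control ratio as a covariate. Leaving out 1 array gave 0 to 4023 calls, and 0 to 5 among the members, all above 0 being without transgenic replicate 3. Array weights gave 11078 calls and 7 among the members, with weights that did not fully converge (5.48 for transgenic replicate 1, 3.39 for non-transgenic replicate 2 and less for each of the others). With the replicate number as a block limma called 0 probe sets. Deviations of same-numbered cultures correlated at 0.06, -0.23 and -0.05, which shows no pairing by number. With 3 cultures per group this cannot exclude one, and the labels do not say whether the numbers pair the cultures. Of 255 alternative values for single member probe sets, 229 kept direction and side of the threshold, 11 kept the direction and passed, and 15 turned sign.

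The Gapdh ratio as covariate turned the sign for Cd36 (1.23 and 0.93), Slc27a1 (0.12 and 0.65), Fabp3 (-0.20), Angptl4 (-0.29 and -0.67), Acsl4 (-0.94), Pcsk6 (0.47), Vldlr (0.26), Flt1 (-0.38) and Pparg (1.41). With the beta-actin ratio it turned for Angptl4 1417130_s_at (-0.01) and Acsl4 (-0.04). With array weights it turned for Cd36 1423166_at (0.11), Fabp4 1451263_a_at (0.00059), Fabp5 1416021_a_at (0.02), Fabp3 (-0.71, adjusted p = 0.0436) and Pparg (0.17), and with median centring for Fabp5 1416021_a_at (0.09). Single arrays turned Fabp3 (from -0.26 without transgenic replicate 2, and -0.06 without non-transgenic replicate 3, to 0.56) and Pparg (0.02 without transgenic replicate 2, the lowest being -1.04). The cause of these turns was not tested. Median centring also changed the split of lower and higher probe sets to 7109 and 15410, against 12733 and 9786, and to 11 and 4 among the members, against 12 and 3.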
